A study of Mus musculus with 3 samples.

Results

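The natriuretic peptide system was followed through 7 genes, taken by name from the 32285 genes of the deposited count matrices: the peptide genes Nppa and Nppb, the receptor genes Npr1, Npr2 and Npr3, and the protease genes Corin and Furin. All 7 were found. The data are single-nucleus RNA counts from mouse heart tissue taken 2 weeks after surgery, in 3 libraries, 1 for each group: myocardial infarction with dapagliflozin (MI-DAPA), myocardial infarction with NS (MI-NS) and sham surgery with NS (Sham-NS). Dapagliflozin inhibits the kidney glucose cotransporter SGLT2. The labels do not expand NS, and strain, sex, age, dose, the heart region sampled and the number of hearts per library are not given in the sources used here. With 1 library per group there is no replicate, so no test was possible. Every interval in brackets is a 95% interval for counting error and says nothing of the spread between animals. Intervals of levels and ratios take the counted RNA molecules as independent. They are too narrow where a few nuclei hold most molecules of a gene, as with Nppa.

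Heart muscle cells release atrial natriuretic peptide (Nppa) and brain natriuretic peptide (Nppb) when they are stretched or stressed. Adult ventricular muscle makes little Nppa, the atria make much, and ventricular expression of both genes is a long-used sign of a strained heart. Both peptides are made as precursors, which corin and furin cut, and both act through the receptor guanylyl cyclase NPR-A (Npr1), which makes cyclic GMP. NPR-B (Npr2) is the matching receptor for C-type natriuretic peptide, and NPR-C (Npr3) takes up and clears all of these peptides.

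The peptide genes are neighbours. Nppb lies on chromosome 4 at 147985788 to 147987205 and Nppa at 148000722 to 148002079 (GRCm38, the build also called mm10, GENCODE annotation), both on the plus strand, with 13517 bp between the end of Nppb and the start of Nppa. The sequences before the peptide genes' RefSeq start sites are shown because these 2 genes moved together in the data. Capitals mark matches on either strand. GATAA is the motif of the GATA factors. The letters CATTCC are that of the TEA-domain factors, CACTT is that of NKX2 factors, and the TATA box was searched as TATAAA. The Nppa stretch is the 250 bases before the RefSeq start (GRCm38.p6). Of the Nppb window only the stretch that holds its GATAA and CATTCC matches is shown. The last 112 bases of that window lie inside the GENCODE gene, and the stretch shown is among them. It therefore lies before the RefSeq start only, not before the GENCODE start.
Nppa, chr4:148000472-148000721, plus strand: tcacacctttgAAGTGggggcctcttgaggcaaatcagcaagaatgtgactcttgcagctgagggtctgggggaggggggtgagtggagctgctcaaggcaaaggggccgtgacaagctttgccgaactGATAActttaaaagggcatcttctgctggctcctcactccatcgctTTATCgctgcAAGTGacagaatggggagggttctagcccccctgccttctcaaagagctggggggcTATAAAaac
Nppb, chr4:147985795-147985821, plus strand: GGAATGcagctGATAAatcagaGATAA

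Both peptide genes had 2 GATAA matches, the Nppa window on opposite strands and the Nppb window on the plus strand. Among the 8 RefSeq promoter windows found for the 7 genes (Furin has 2), GATAA was in 2, those of Nppa and Nppb, against 22.6% of all 32851 mouse promoter windows of this length. TATAAA was in 3 of the 8, against 12.4% of all, and the remaining one was a Furin window. CATTCC was in 1 of the 8 windows, that of Nppb, against 12.6% of all. CACTT was in 2 of the 8, those of Nppa and a Furin window, against 40.7% of all windows. The serum response factor motif known as the CArG box, in 1.47% of all, matched none of the 8. These matches describe letters and do not show that a factor binds there.

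The libraries held 8871086 UMIs (distinct RNA molecules) in 6354 barcodes for MI-DAPA, 10113430 in 7725 for MI-NS and 13873275 in 9744 for Sham-NS. The filter left 5372 MI-DAPA, 7065 MI-NS and 8296 Sham-NS nuclei, whose median depths were 831, 851 and 790 UMIs, so most nuclei were shallow. Cardiomyocyte-like nuclei numbered 1434 (26.7% of kept nuclei) in MI-DAPA, 977 (13.8%) in MI-NS and 1613 (19.4%) in Sham-NS, with median depths of 2250.5, 1920 and 2208 UMIs. Pairs of libraries shared 13 to 20 barcodes. Classes are written "-like" because they were rebuilt from clusters, in which the 7 genes were not used. Endothelial-like cluster 8 had 12 of the vascular endothelial markers raised but none among its top 10 genes, which held Kit, a mast cell marker, and fibroblast-like cluster 5 had no fibroblast marker and 1 monocyte marker among its top 10. These clusters are therefore compared by number and not merged into a class. Levels are CPM, the UMIs of a gene scaled to all UMIs of the class in that library, and a level summed over a class cannot tell fewer expressing nuclei from less RNA per nucleus.

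Among the 10 classes with at least 50 nuclei in every library, Nppa and Nppb stood highest in cardiomyocyte-like nuclei on the mean over libraries. In Sham-NS alone, Nppb was 23.5 CPM in lymphatic-like nuclei, from 2 UMIs and with an interval that overlaps the cardiomyocyte-like one. In cardiomyocyte-like nuclei their levels were high in MI-NS, intermediate in MI-DAPA and low in Sham-NS. Nppa stood at 147 CPM [135 to 160] in MI-DAPA, 405 CPM [379 to 433] in MI-NS and 23.0 CPM [18.6 to 28.3] in Sham-NS, from 538, 875 and 92 UMIs. Nppb stood at 92.3 CPM [82.7 to 103] in MI-DAPA, 396 CPM [370 to 424] in MI-NS and 21.8 CPM [17.4 to 26.9] in Sham-NS, from 337, 855 and 87 UMIs. None of these intervals overlapped between libraries. Both infarct libraries lay above the sham library for both peptides.

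A gene was called higher or lower where the class levels differed at least 2-fold and both libraries together had at least 50 UMIs. For MI-NS over Sham-NS the log2 ratio was 4.13 [3.83 to 4.46] for Nppa and 4.18 [3.86 to 4.52] for Nppb, 17.5-fold and 18.1-fold. In that comparison 7.38% of 8266 genes were called higher and 2.15% lower. For MI-DAPA over MI-NS the log2 ratio was -1.46 [-1.62 to -1.30] for Nppa and -2.10 [-2.29 to -1.92] for Nppb, and here 0.383% of 8091 genes were called higher and 4.68% lower. For MI-DAPA over Sham-NS it was 2.67 [2.36 to 3.01] for Nppa and 2.08 [1.74 to 2.44] for Nppb, with 2.14% of 8511 genes called higher and 2.03% lower. So both peptide genes were called in all 3 comparisons, while Corin, Furin and Npr2, the other members with enough UMIs in cardiomyocyte-like nuclei, were called in none of them. The median log2 ratio of these 5 members was 0.03 for MI-NS over Sham-NS, against 0.13 over all genes tested, -0.53 for MI-DAPA over MI-NS, against -0.16, and 0.01 for MI-DAPA over Sham-NS, against -0.04. The 3 comparisons share libraries and are not independent. Scaling with TMM factors, which allow for differences in RNA makeup, moves every gene by -0.23 for MI-NS over Sham-NS and by 0.26 for MI-DAPA over MI-NS. The Nppa call for MI-DAPA against MI-NS was lost under a stricter nucleus filter, at -0.81, and the one for MI-DAPA against Sham-NS was lost when the members were let into the clustering, at 0.88. In both of these settings a cluster led by Myh7, Nppa and Nppb got no name and dropped out of the class. With that cluster added back, an alternative chosen after the data were seen, both Nppa ratios stayed within the counting interval of the value given.

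**Figure D1:**
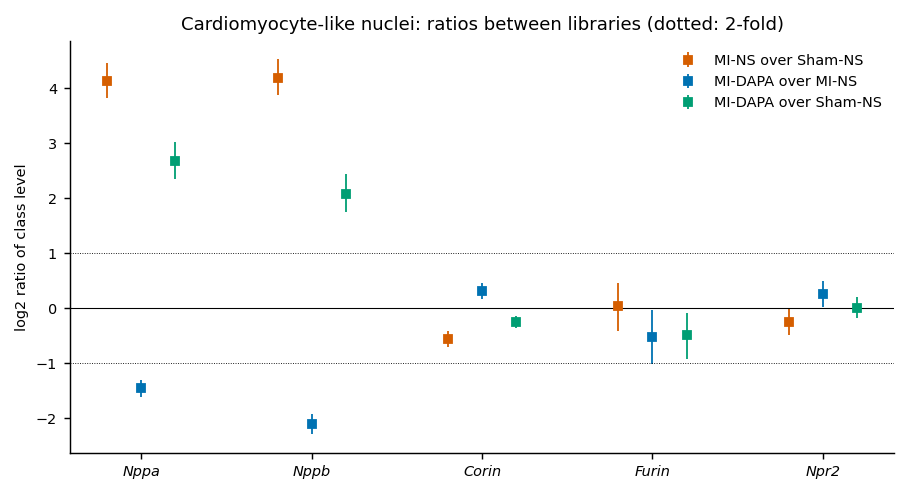
Log2 ratio of the level in cardiomyocyte-like nuclei between libraries (y axis, no unit) for the 5 genes with enough UMIs (x axis). Squares are ratios, bars 95% counting intervals, the dotted lines mark 2-fold. Nppa and Nppb lie at 4.13 and 4.18 for MI-NS over Sham-NS and at -1.46 and -2.10 for MI-DAPA over MI-NS, while Corin, Furin and Npr2 lie within the dotted lines.

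Single nuclei shared the peptide transcripts unevenly. Nppa had no UMI in 1310 of 1434 MI-DAPA, 736 of 977 MI-NS and 1584 of 1613 Sham-NS cardiomyocyte-like nuclei. Nuclei with 5 or more Nppa UMIs numbered 48 (3.35%) in MI-DAPA, 75 (7.68%) in MI-NS and 8 (0.496%) in Sham-NS, and these held 74.5%, 71.1% and 66.3% of the Nppa UMIs of their library's class. The highest counts in a nucleus were 22 in MI-DAPA, 28 in MI-NS and 10 in Sham-NS. A small share of nuclei thus carried most Nppa RNA in each library. Their median depth, 3838 UMIs in MI-DAPA, 2722 in MI-NS and 3684 in Sham-NS, was above that of the remaining cardiomyocyte-like nuclei, 2201.5, 1829 and 2207.

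Nppb was spread more evenly than Nppa. Nuclei with 5 or more Nppb UMIs numbered 7 in MI-DAPA, 38 in MI-NS and 2 in Sham-NS, and held 10.98%, 32.3% and 14.9% of the Nppb UMIs. With each nucleus thinned at random to 500 UMIs, the variance-to-mean ratio of Nppa was 1.99 in MI-DAPA, 1.96 in MI-NS and 1.36 in Sham-NS, where a ratio near 1 is what independent counting gives. Among genes within 1.5-fold of its mean, 2 of 979 in MI-DAPA, 0 of 318 in MI-NS and 44 of 2322 in Sham-NS had a higher ratio than Nppa. For Nppb the ratio was 1.10 in MI-DAPA, 1.41 in MI-NS and 1.09 in Sham-NS, with 257 of 1613, 4 of 355 and 493 of 2399 genes of like mean above it. Nppb thus stood apart from genes of like level mainly in MI-NS. Corin, by comparison, had ratios of 1.11, 1.15 and 1.11.

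The share of cardiomyocyte-like nuclei with at least 1 Nppa UMI was 8.65% [7.24 to 10.2] in MI-DAPA, 24.7% [22.0 to 27.5] in MI-NS, against 1.80% [1.21 to 2.57] in Sham-NS. For Nppb it was 15.2% [13.4 to 17.2] in MI-DAPA, 35.9% [32.9 to 39.02] in MI-NS, against 3.66% [2.80 to 4.69] in Sham-NS. In every library more nuclei had an Nppb UMI than an Nppa UMI. Macrophage-like nuclei, a class not expected to be a main source of these peptides, were taken as the background: 2.03% of MI-DAPA, 9.79% of MI-NS and 0.118% of Sham-NS macrophage-like nuclei had an Nppa UMI, at median depths of 602, 681 and 656.5 UMIs. After thinning to 500 UMIs the Nppa share was 3.97% in cardiomyocyte-like against 1.77% in macrophage-like nuclei of MI-DAPA, 12.3% against 6.53% in MI-NS, and 0.558% against 0.118% in Sham-NS. The thinned Nppb share was 3.00% against 0.759% in MI-DAPA, 13.3% against 3.79% in MI-NS, and 1.18% against 0.235% in Sham-NS. Both peptides were therefore detected in a larger share of cardiomyocyte-like than of macrophage-like nuclei at equal depth, but a good part of the detection in MI-NS was matched in macrophage-like nuclei. In MI-DAPA and Sham-NS the intervals of some of these pairs overlap, so only in MI-NS was the difference clear for both peptides.

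**Figure D2:**
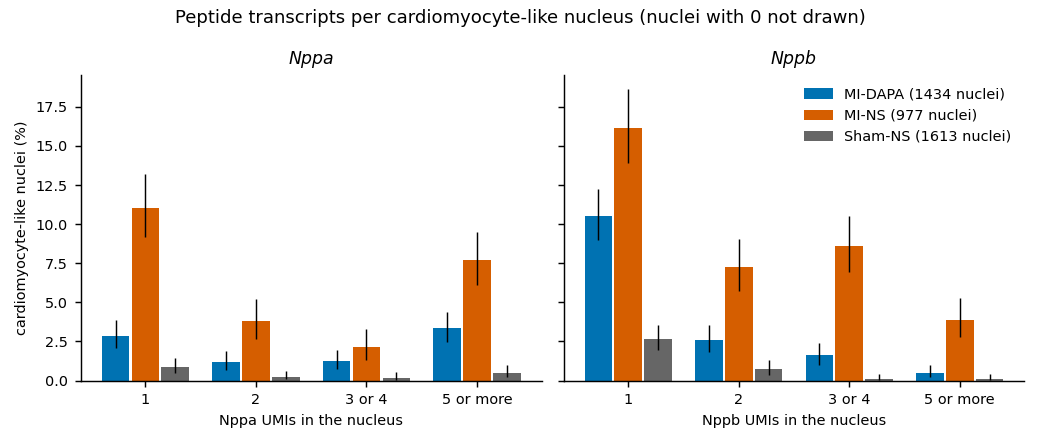
Share of cardiomyocyte-like nuclei (y axis, %) with 1, 2, 3 or 4, and 5 or more UMIs of Nppa (left) or Nppb (right) in MI-DAPA, MI-NS and Sham-NS. Bars are shares, lines 95% binomial intervals, and nuclei with 0 UMIs are not drawn. The share with 5 or more Nppa UMIs is 3.35% in MI-DAPA, 7.68% in MI-NS and 0.496% in Sham-NS.

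The peptide transcripts occurred together. Both genes had a UMI in 58 MI-DAPA, 151 MI-NS and 13 Sham-NS nuclei of the class. An Nppb UMI was found in 46.8% of MI-DAPA nuclei with Nppa and in 12.2% of those without, in 62.7% and 27.2% in MI-NS, and in 44.8% and 2.90% in Sham-NS. Nppb was thus detected more often beside Nppa in each library. Both also went with Myh7, the beta myosin heavy chain that mouse ventricles use before birth. An Nppa UMI was found in 21.8% of MI-DAPA nuclei with a Myh7 UMI and in 6.61% of those without, in 52.0% and 17.6% in MI-NS, and in 3.97% and 1.61% in Sham-NS. For Nppb the shares were 28.0% and 13.2% in MI-DAPA, 62.5% and 29.1% in MI-NS, and 6.35% and 3.43% in Sham-NS. In Sham-NS only 5 of 126 nuclei with Myh7 had Nppa, and the intervals with and without Myh7 overlap there. Deeper nuclei are more likely to show any gene, so the shares were also taken with every nucleus thinned to 500 UMIs. An Nppb UMI was then found in 15.8% of MI-DAPA nuclei with Nppa and in 2.47% of those without, in 30.8% and 10.9% in MI-NS, and in 2 of 9 and 1.06% in Sham-NS. The thinned Nppa share with and without Myh7 was 23.9% and 2.93% in MI-DAPA, 34.7% and 9.11% in MI-NS, and 1 of 32 nuclei and 0.506% in Sham-NS. For Nppb it was 8.45% and 2.71% in MI-DAPA and 34.7% and 10.3% in MI-NS, while in Sham-NS 0 of 32 nuclei with Myh7 and 1.20% of those without had Nppb. At equal depth both peptides thus still went with Myh7 in MI-DAPA and MI-NS, except that the Nppb intervals in MI-DAPA overlap, and the Sham-NS counts are too few to show either.

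**Figure D3:**
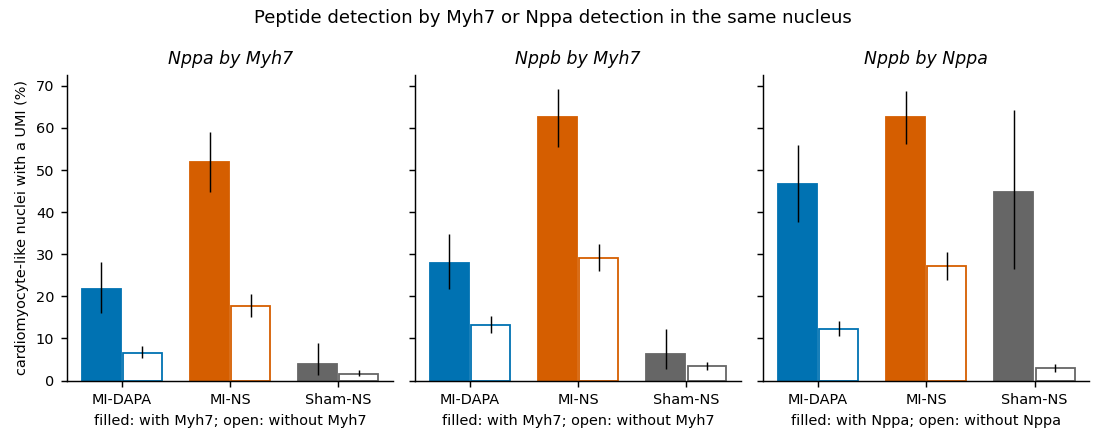
Share of cardiomyocyte-like nuclei (y axis, %) with an Nppa or Nppb UMI among nuclei with (filled) and without (open) a Myh7 UMI, and with an Nppb UMI among nuclei with and without an Nppa UMI, by library. Lines are 95% binomial intervals. The filled bar is the higher in every pair, with Nppa at 52.0% and 17.6% in MI-NS.

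Atrial muscle would carry much Nppa, so chamber markers were read in the same nuclei. Several of the listed atrial markers were close to absent: Myl7 had 1, 1 and 2 UMIs in MI-DAPA, MI-NS and Sham-NS, Sln 0, 0 and 2, and Bmp10 none in any library. Myl4, also on the list, had 20, 10 and 7 UMIs, or 5.48, 4.63 and 1.75 CPM. The ventricular light chain Myl2 stood at 2788, 2947 and 2415 CPM. The summed level of the 8 atrial markers was 145 CPM in MI-DAPA, 99.1 CPM in MI-NS and 153 CPM in Sham-NS, mostly from Kcnj3 and Tbx5. An Nppa UMI was found in 8.55% of MI-DAPA nuclei with an atrial marker UMI and in 8.68% of those without, in 24.7% of both in MI-NS, and in 1.57% and 1.89% in Sham-NS. Nppa detection therefore did not go with these atrial markers at full depth, and no thinned split was taken. The split rests mostly on Kcnj3 and Tbx5, so it cannot tell whether single atrial nuclei carried Nppa.

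When the cardiomyocyte-like nuclei were clustered again, 1 of 8 sub-clusters was led by Myh7, Ppm1e, Rcan1, Gdf15 and Acta1, genes of the fetal and stress programme among them. It held 123 MI-DAPA, 226 MI-NS and 15 Sham-NS nuclei, or 8.58%, 23.1% and 0.930% of the class. Nppa stood in it at 848 CPM in MI-DAPA, 1000 CPM in MI-NS and 365 CPM in Sham-NS, and Nppb at 284, 856 and 383 CPM. It held 76.6% of the class's Nppa UMIs in MI-DAPA and 74.9% in MI-NS, but 21.7% in Sham-NS, and 40.9%, 65.6% and 24.1% of its Nppb UMIs. Within these nuclei Nppa was close between MI-DAPA and MI-NS, while Nppb was well below MI-NS in MI-DAPA. Without the sub-cluster the log2 ratio of MI-DAPA over MI-NS was -1.88 for Nppa and -1.64 for Nppb, and that of MI-NS over Sham-NS was 2.99 and 3.54. A peptide difference between MI-NS and Sham-NS thus remained in the class without the sub-cluster of most Myh7. Nuclei outside the class differed too. Over all other named nuclei Nppa stood at 140 CPM in MI-NS and 4.43 CPM in Sham-NS, and Nppb at 67.2 and 5.13 CPM. Whether the remaining difference exceeded the one outside the class was not tested. Several other sub-clusters came almost wholly from 1 library, and in those a sub-cluster and a library cannot be told apart.

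Other muscle genes, a list of 9 that holds fetal and stress genes and also genes of adult muscle, moved with the peptides in part. For MI-NS over Sham-NS 5 of 9 were higher and 0 lower: Myh7 at a log2 ratio of 3.88, the skeletal actin Acta1 at 1.87, the stretch-responsive sarcomere protein Ankrd1 at 3.93, the nicotinamide riboside kinase Nmrk2 at 4.37, and the small proline-rich protein Sprr1a. For Sprr1a the 54 UMIs of MI-NS stood against none in Sham-NS, which is at least 33.3-fold higher when set against a floor of 3 UMIs per library. The adult myosin heavy chain Myh6, the calcium pump Atp2a2 and the cardiac actin Actc1 had negative ratios there, at -0.80, -0.44 and -0.61, which did not pass 2-fold, and Xirp2 stood just short of it at 0.997. For MI-DAPA over MI-NS 4 were lower, Myh7 at -1.45, Acta1 at -1.96, Nmrk2 at -2.57 and Sprr1a with 3 UMIs against 54. Ankrd1 did not follow the peptides there, at 1917 CPM in MI-DAPA and 1962 CPM in MI-NS, a log2 ratio of -0.03 [-0.09 to 0.02]. For MI-DAPA over Sham-NS 2 of 7 were higher, Myh7 at 2.43 and Ankrd1 at 3.90. The median of the list was 1.87 for MI-NS over Sham-NS and -0.35 for MI-DAPA over MI-NS. Over all genes tested, 7.38% were higher and 2.15% lower for MI-NS over Sham-NS. The shares were 0.383% and 4.68% for MI-DAPA over MI-NS, and 2.14% and 2.03% for MI-DAPA over Sham-NS.

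Of 24 transcription factors that are known or proposed to control these peptide genes, 20 had enough UMIs in cardiomyocyte-like nuclei for MI-NS over Sham-NS. Of these, 1 was higher, the TEA-domain factor Tead1 at 1.06 [0.92 to 1.21], and 1 was lower, Klf15, an inhibitor of hypertrophic genes, at -1.47 [-1.89 to -1.08]. Tead1 falls short of 2-fold once the TMM shift of -0.23 is added. None of 19 was called for MI-DAPA over MI-NS, where Tead1 stood at 245 CPM in MI-DAPA and 383 CPM in MI-NS and Klf15 at 33.1 and 28.7 CPM. For MI-DAPA over Sham-NS Klf15 was lower, at -1.27 [-1.58 to -0.96], and no other of 20 was called. Gata4, a GATA factor, stood at 39.97 CPM in MI-DAPA, 42.6 CPM in MI-NS and 26.5 CPM in Sham-NS and was not called. Gata6, the other GATA factor listed, went the other way, at 88.2, 67.2 and 91.4 CPM in the same order. Its log2 ratio for MI-NS over Sham-NS was -0.44 [-0.73 to -0.16], and it was not called either. The median of the list was 0.16 for MI-NS over Sham-NS and 0.03 for MI-DAPA over MI-NS, against 0.13 and -0.16 over all genes. Beside these counts, 7.38% of all genes tested were higher and 2.15% lower for MI-NS over Sham-NS. The shares were 0.383% and 4.68% for MI-DAPA over MI-NS, and 2.14% and 2.03% for MI-DAPA over Sham-NS.

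Outside the cardiomyocyte-like nuclei the peptide transcripts followed the same order of libraries. Over all other named nuclei Nppa stood at 45.6 CPM in MI-DAPA, 140 CPM in MI-NS and 4.43 CPM in Sham-NS, which is 30.9%, 34.5% and 19.2% of its level in the cardiomyocyte-like nuclei of the same library. For Nppb these percentages were 28.9% in MI-DAPA, 16.96% in MI-NS and 23.5% in Sham-NS. Muscle genes with no known use outside muscle also appeared there, but at smaller percentages for most: Myh6 at 7.88%, 4.88% and 6.80%, Ttn at 5.44%, 2.88% and 4.52%, and Actc1 at 19.3%, 18.2% and 17.4%. Over the other classes with at least 50 nuclei in each library, Nppa in MI-NS ran from 94.8 CPM in smooth muscle-like nuclei to 381 CPM [242 to 572] in endothelial-like cluster 15. That highest value came from 23 UMIs, and its interval overlaps the cardiomyocyte-like one. T and NK cell-like nuclei, with 25 nuclei in MI-DAPA and 47 in Sham-NS, were too few to be among these classes. Their 108 MI-NS nuclei had Nppa at 402 CPM [288 to 545], from 41 UMIs, close to the cardiomyocyte-like level of 405 CPM. They had no Nppa UMI in MI-DAPA and Sham-NS. The percentage was higher for Nppa than for Myh6, Ttn and Actc1 in MI-DAPA and MI-NS. Whether these UMIs were made in the nuclei or came from free RNA was not tested. Subtracting the level in immune-like nuclei left the cardiomyocyte-like log2 ratios of Nppa at 3.49 for MI-NS over Sham-NS and -1.01 for MI-DAPA over MI-NS.

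Barcodes that failed the filter, nearly all for mitochondrial content, held still more Nppa. Nppa stood there at 236 CPM in MI-DAPA, 1203 CPM in MI-NS and 57.5 CPM in Sham-NS, or 160%, 297% and 250% of the cardiomyocyte-like level. Nppb stood at 103 CPM in MI-DAPA, 253 CPM in MI-NS and 12.1 CPM in Sham-NS, or 111%, 64.0% and 55.5%. These barcodes held 31.3% of all Nppa UMIs in MI-DAPA, 42.0% in MI-NS and 60.7% in Sham-NS, in 16.1%, 13.03% and 24.4% of all UMIs, and 51.5%, 44.6% and 54.5% of their own UMIs were mitochondrial. The ratio of Nppa to Nppb UMIs was 1.60 in cardiomyocyte-like nuclei, 1.71 in other nuclei and 2.30 in failed barcodes of MI-DAPA, 1.02, 2.09 and 4.75 in MI-NS, and 1.06, 0.864 and 4.76 in Sham-NS. In MI-NS the balance of the peptides in other nuclei thus lay between that of cardiomyocyte-like nuclei and that of failed barcodes.

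**Figure D4:**
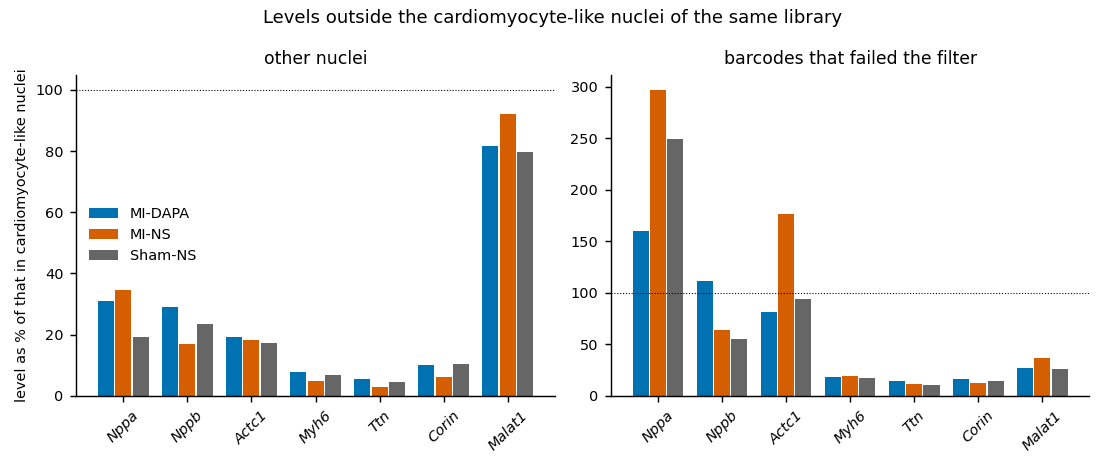
Level outside the cardiomyocyte-like nuclei as a percentage of the level inside them in the same library (y axis, %) for 7 genes, in other nuclei (left) and in barcodes that failed the filter (right). The dotted line marks 100%, an equal level. In failed barcodes Nppa lies at 160% in MI-DAPA, 297% in MI-NS and 250% in Sham-NS. In the same order Myh6 lies at 18.3%, 19.7% and 17.3%, and Actc1 at 81.6%, 176% and 94.3%.

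Corin, the membrane protease that cuts the atrial peptide precursor, was a cardiomyocyte gene in these data. Corin (chromosome 5, 72300025 to 72504473, minus strand) had 93.1% of its UMIs in cardiomyocyte-like nuclei in MI-DAPA, 87.6% in MI-NS and 90.0% in Sham-NS, counted over kept nuclei outside the mixed clusters. Mixed clusters held a further 225, 122 and 409 Corin UMIs and failed barcodes 73, 42 and 192. In cardiomyocyte-like nuclei Corin stood at 321 CPM [302 to 339] in MI-DAPA, 258 CPM [237 to 280] in MI-NS and 380 CPM [361 to 400.0] in Sham-NS. This order is opposite to that of the peptides. The intervals did not overlap, but no ratio reached 2-fold: the log2 ratio was -0.56 [-0.71 to -0.42] for MI-NS over Sham-NS, 0.32 [0.17 to 0.46] for MI-DAPA over MI-NS and -0.25 [-0.36 to -0.14] for MI-DAPA over Sham-NS. Nuclei with a Corin UMI made up 45.2% of the class in MI-DAPA, 35.6% in MI-NS and 50.3% in Sham-NS. The nuclei with 5 or more Nppa UMIs had Corin at 330 CPM against 320 CPM in the remaining nuclei of MI-DAPA, 238 against 260 CPM in MI-NS, and 214 against 382 CPM in Sham-NS, the 214 from 8 UMIs. Corin was therefore present in the nuclei with most Nppa. A vascular smooth muscle-like cluster also showed Corin, at 278, 102 and 297 CPM in MI-DAPA, MI-NS and Sham-NS. That cluster held the cardiomyocyte gene Ttn at 81078, 20305 and 55570 CPM, in the same order, and the part of cardiomyocyte RNA in its Corin was not tested.

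Furin, a widely used protease of the secretory pathway that cuts the brain peptide precursor among many others, was low in every class. Furin (chromosome 7, 80388585 to 80405436, minus strand) stood in cardiomyocyte-like nuclei at 22.2 CPM [17.6 to 27.6] in MI-DAPA, 32.0 CPM [24.9 to 40.5] in MI-NS and 31.3 CPM [26.1 to 37.3] in Sham-NS. All 3 intervals overlapped. The log2 ratio was 0.03 [-0.42 to 0.47] for MI-NS over Sham-NS and -0.53 [-1.01 to -0.04] for MI-DAPA over MI-NS. Averaged over libraries, the 10 classes with at least 50 nuclei in each library ran from 25.4 CPM in lymphatic-like and 28.5 CPM in cardiomyocyte-like nuclei to 59.9 CPM in endocardial-like nuclei, and neighbours in that order did not differ beyond their counting intervals.

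Npr1, the receptor for both peptides, was an endothelial gene. Npr1 (chromosome 3, 90450591 to 90465866, minus strand) stood highest in endothelial-like cluster 1, a cluster with capillary genes such as Car4 and Timp4, at 393 CPM [332 to 463] in MI-DAPA, 565 CPM [483 to 658] in MI-NS and 513 CPM [470 to 559] in Sham-NS. Cluster 15, led by arterial genes such as Sema3g, Sox17 and Gja5, followed with 274, 431 and 403 CPM, then cluster 8 with 268, 373 and 353 CPM, endocardial-like nuclei with 210, 265 and 266 CPM and lymphatic-like nuclei with 266, 203 and 223 CPM. In this order, which is that of the mean over libraries, the intervals of each class and the next overlap in every library, while some classes further apart do not, such as cluster 1 and lymphatic-like nuclei in MI-NS and Sham-NS. In cardiomyocyte-like nuclei Npr1 was low, at 2.74 CPM in MI-DAPA, 4.63 CPM in MI-NS and 7.01 CPM in Sham-NS, from 10, 10 and 28 UMIs.

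Counted over kept nuclei outside the mixed clusters, the 3 vascular endothelial-like clusters held 66.0% of Npr1 UMIs in MI-DAPA, 41.2% in MI-NS and 65.9% in Sham-NS, although they made up 10.3%, 9.32% and 14.1% of the UMIs of these nuclei. Mixed clusters held 89, 220 and 299 more Npr1 UMIs and failed barcodes 73, 84 and 203. On the same count, 27.8% of the MI-NS UMIs of Npr1 were in mesothelial- or epicardial-like nuclei, at 315 CPM [274 to 361], a class with 458 nuclei in MI-NS but 17 in MI-DAPA and 14 in Sham-NS. Within cluster 1 the log2 ratio of Npr1 was 0.14 [-0.12 to 0.39] for MI-NS over Sham-NS, where 8.71% of 4866 genes were called in either direction. It was -0.52 [-0.85 to -0.19] for MI-DAPA over MI-NS, where 3.57% of 2833 genes were called. Npr1 was not called in either comparison. With classes taken from marker levels the second ratio was -0.081, and the first, whose interval holds 0, became -0.26.

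Npr3, the clearance receptor, was concentrated in the endocardium-like nuclei. Npr3 (chromosome 15, 11839896 to 11907287, minus strand) stood there at 561 CPM [401 to 763] in MI-DAPA, 334 CPM [250 to 437] in MI-NS and 593 CPM [515 to 681] in Sham-NS, from 40, 53 and 203 UMIs. These nuclei, with 7 of 8 endocardial markers raised, held 40 of 65 Npr3 UMIs in MI-DAPA, 53 of 106 in MI-NS and 203 of 272 in Sham-NS, in 1.12%, 2.19% and 4.13% of the UMIs, all counted over kept nuclei outside the mixed clusters. Mixed clusters held 8, 28 and 53 more Npr3 UMIs and failed barcodes 10, 5 and 61. On the mean over libraries the next highest of the 10 classes was endothelial-like cluster 15, at 62.0 CPM in Sham-NS from 6 UMIs and with no UMI in MI-DAPA and MI-NS. An adipocyte-like class, with 89 nuclei in MI-NS and 1 and 2 in MI-DAPA and Sham-NS, had Npr3 at 85.9 CPM from 16 UMIs. Nuclei with an Npr3 UMI made up 26.9% of endocardial-like nuclei in MI-DAPA, 26.2% in MI-NS and 41.2% in Sham-NS, against 0.253%, 0.421% and 0.588% of macrophage-like nuclei.

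The order of endocardial-like Npr3 between the infarct libraries depended on how the class was drawn. The log2 ratio was -0.82 [-1.29 to -0.39] for MI-NS over Sham-NS, where 11.9% of 2041 genes were called in either direction, and 0.75 [0.12 to 1.37] for MI-DAPA over MI-NS, where 10.1% of 744 genes were called. The ratio of MI-DAPA over Sham-NS was -0.07 [-0.61 to 0.41]. None of these passed 2-fold. With classes taken from marker levels the second ratio turned to -0.14 and the third became -1.08, past 2-fold, so that MI-DAPA rather than MI-NS was lowest. The class held only 78 MI-DAPA, 126 MI-NS and 294 Sham-NS nuclei, which limits the precision.

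Npr2, the receptor for C-type natriuretic peptide, was spread over more classes than the other receptors. Npr2 (chromosome 4, 43631935 to 43651244, plus strand) stood highest in endothelial-like cluster 8, at 484 CPM [399 to 582] in MI-DAPA, 286 CPM [230 to 351] in MI-NS and 577 CPM [392 to 818] in Sham-NS. Endothelial-like cluster 1 followed with 304, 267 and 356 CPM, endocardial-like nuclei with 336, 170 and 272 CPM and fibroblast-like cluster 5 with 274, 216 and 218 CPM, and the intervals of neighbours overlap in MI-NS and Sham-NS. Pericyte-like nuclei were the lowest, with 22.1, 51.6 and 31.5 CPM. Cardiomyocyte-like nuclei lay between, at 123 CPM [112 to 135] in MI-DAPA, 103 CPM [90.2 to 118] in MI-NS and 123 CPM [112 to 134] in Sham-NS. There the log2 ratio was -0.25 [-0.48 to -0.02] for MI-NS over Sham-NS and 0.25 [0.02 to 0.49] for MI-DAPA over MI-NS, which is within 2-fold. The order of classes above leaves out fibroblast-like clusters 3 and 4, which had few nuclei in MI-NS and Sham-NS, respectively. Npr2 stood at 274 CPM in cluster 3 of Sham-NS and 239 CPM in cluster 4 of MI-NS. Over kept nuclei outside mixed clusters, the fibroblast-like clusters held 28.9% of its UMIs in MI-DAPA and 38.3% in MI-NS. The vascular endothelial-like clusters held 21.5% and 16.3%. In Sham-NS fibroblast-like cluster 3 held 22.5% and endothelial-like cluster 1 24.7%.

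Within the named classes, the only receptor ratio past 2-fold was that of Npr2 in endothelial-like cluster 8, lower in MI-NS than in Sham-NS at a log2 ratio of -1.03 [-1.62 to -0.38], among 12.4% of 1512 genes called in either direction. The Sham-NS side of it rests on 31 UMIs in 76 nuclei, the interval reaches well inside 2-fold, and this ratio was not among those recomputed under the alternatives. For MI-DAPA over MI-NS the ratio was 0.76 [0.35 to 1.18], where 3.87% of 2431 genes were called, and Npr2 was not. In MI-DAPA and Sham-NS, Npr2 was thus above MI-NS in cluster 8, and their intervals overlapped each other.

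**Figure D5:**
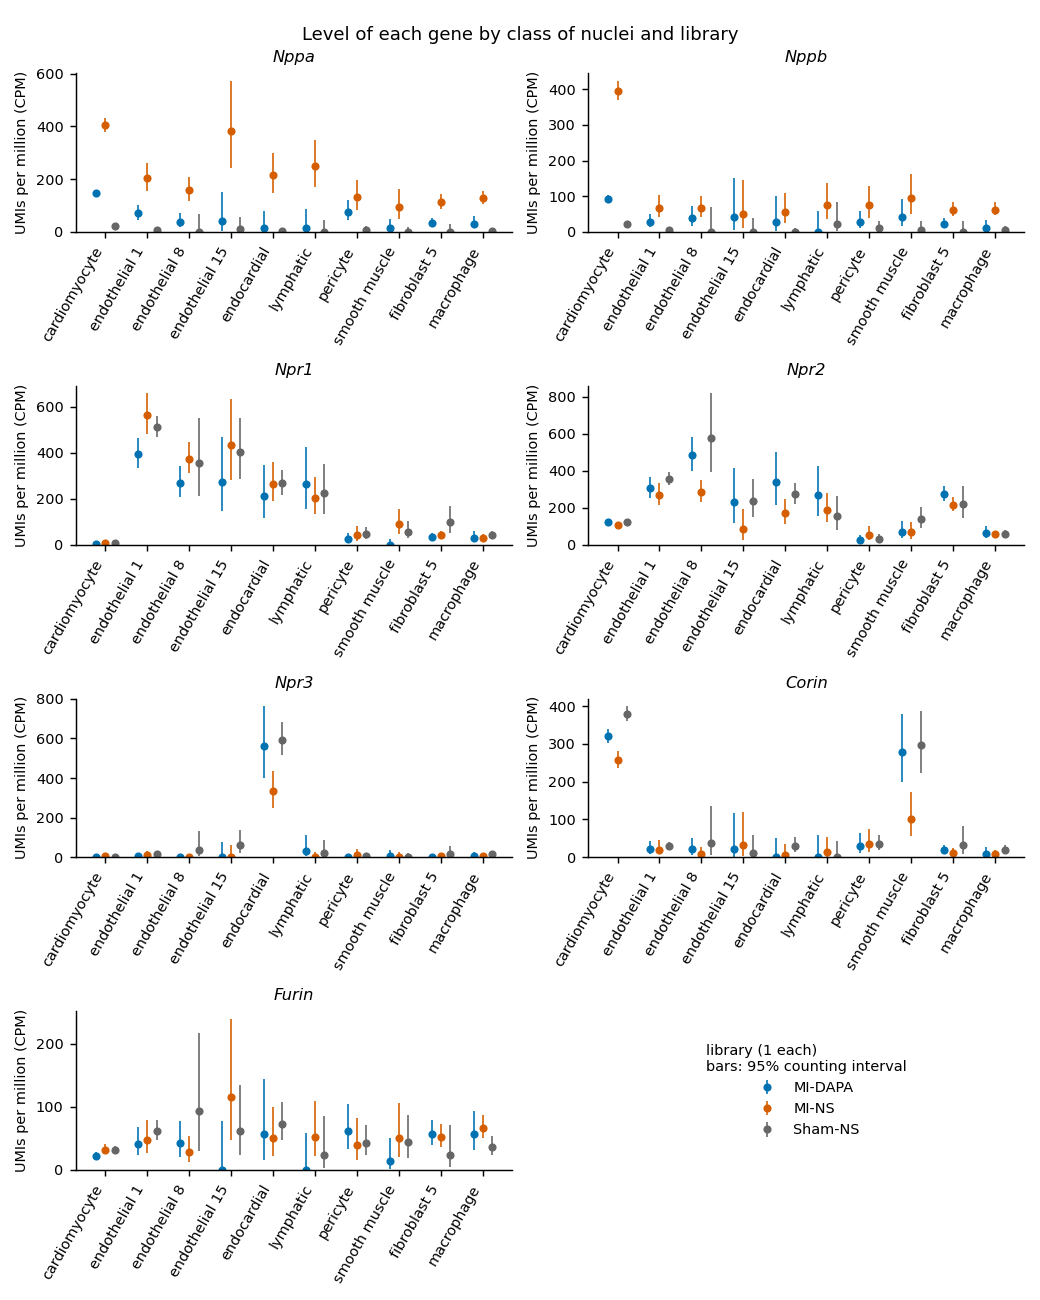
Level of each of the 7 genes (y axis, CPM) in the 10 classes with at least 50 nuclei in every library (x axis), for MI-DAPA, MI-NS and Sham-NS. Points are levels and bars 95% Poisson intervals. On the mean over libraries Nppa, Nppb and Corin are highest in cardiomyocyte-like nuclei, Npr1 in endothelial-like cluster 1 and Npr3 in endocardial-like nuclei, and Furin is low throughout.

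The genes whose levels were most like those of each member were sought over 40 pairs of class and library, among 9966 genes with at least 200 UMIs, as Pearson's r of log2(CPM + 10). For Nppa these were Nppb (r = 0.88), Ankrd1 (0.73) and Myh7 (0.72), and for Nppb they were Nppa, Ankrd1 (0.79) and Myh7 (0.77). For Corin they were the sarcomere genes Tnnt2 (0.89) and Myh6 (0.89) and the calcium pump Atp2a2 (0.88). For Npr1 they were Dock9 (0.92), Fgd5 (0.91) and Slc9a3r2 (0.91), for Npr2 Nod1 (0.78), Hspg2 (0.76) and Stox2 (0.73), and for Npr3 Nrg1 (0.79), Tuft1 (0.77) and Plagl1 (0.77). Nrg1 was itself among the markers that named the endocardial-like class. Furin had no close match, with Ywhab (0.68), Wdr46 (0.68) and Hectd2 (0.67) highest. These correlations describe levels over classes that share libraries.

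Further genes of the pathway were read from a list of 26, of which 25 were in the files. The gene of C-type natriuretic peptide, Nppc, had at most 2 UMIs in any of its 3 highest classes, and Ostn, which makes the clearance receptor ligand osteocrin, had none there, so their levels could not be compared at this depth. Classes are ranked here by the mean over libraries. Pcsk6, a protease known to activate corin, stood highest in lymphatic-like nuclei, at 203 CPM in MI-DAPA, 173 CPM in MI-NS and 247 CPM in Sham-NS, and in fibroblast-like cluster 5, at 198, 156 and 177 CPM. Prkg1, the cyclic GMP-dependent kinase, stood highest in pericyte-like nuclei, at 168 CPM in MI-DAPA, 86.0 CPM in MI-NS and 172 CPM in Sham-NS. Pde2a, a phosphodiesterase that cyclic GMP activates, stood highest in endothelial-like cluster 8 on average, at 314, 317 and 484 CPM. The cyclic GMP-degrading enzyme Pde5a was highest in pericyte-like nuclei, at 124 CPM in MI-DAPA, 160 CPM in MI-NS and 83.1 CPM in Sham-NS. Pde9a, another such enzyme, was highest in fibroblast-like cluster 5, at 120, 131 and 88.7 CPM. Mme, the gene of neprilysin, which breaks down natriuretic peptides, was scarce everywhere, with 7 UMIs in fibroblast-like cluster 5, its highest class.

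In cardiomyocyte-like nuclei 7 of the 25 pathway genes had enough UMIs. For MI-NS over Sham-NS 2 were higher, Prkg1 at 2.15 [1.41 to 2.98] and the kinase target Vasp at 1.06 [0.55 to 1.57], and 1 was lower, Ide, the insulin-degrading enzyme that also cuts natriuretic peptides, at -1.17 [-1.42 to -0.94]. With the TMM shift of -0.23 Vasp falls short of 2-fold. The median of the 7 was 0.85, against 0.13 over all genes tested. For MI-DAPA over MI-NS none of the 7 was called, with a median of -0.27 against -0.16. For MI-DAPA over Sham-NS Prkg1 was higher, at 1.88 [1.19 to 2.68], and Ide lower, at -1.10 [-1.30 to -0.91]. Prkg1 stood at 19.7 CPM in MI-DAPA, 23.6 CPM in MI-NS and 5.26 CPM in Sham-NS, and Ide at 85.4, 81.1 and 183 CPM, so neither gene showed the step between MI-DAPA and MI-NS that Nppa and Nppb had. Of all genes tested, 7.38% were higher and 2.15% lower for MI-NS over Sham-NS. The shares were 0.383% and 4.68% for MI-DAPA over MI-NS, and 2.14% and 2.03% for MI-DAPA over Sham-NS.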

How the data were processed

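The authors deposited UMI counts per gene and barcode for 3 single-nucleus libraries, made with Cell Ranger 6.0.1 per the file headers. Per the submitters' processing notes the build was mm10 and Seurat was used, in a role not stated. The Cell Ranger reference and whether intronic reads were counted are not given in the sources used here. Sequences come from RefSeq (GRCm38.p6) and coordinates from GENCODE.

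Nuclei with at least 300 genes and at most 10% mitochondrial UMIs were kept. Scrublet called 2, 1 and 0 doublets in MI-DAPA, MI-NS and Sham-NS and so had not worked; clusters whose median score passed 0.1 were set aside as mixed (512 MI-DAPA, 722 MI-NS and 1181 Sham-NS nuclei). Leiden clusters (scanpy 1.11.5, leidenalg 0.10.2, resolution 1, 2000 variable genes per library without the 7 members, 30 components, 15 neighbours) were named from 21 marker sets, with at least 3 markers raised 2-fold. A cluster whose top 10 genes held more markers of its second set, with 5 or more of them raised, took that name, a step added after the clusters were seen that named the endocardial-, lymphatic- and smooth muscle-like classes. Sub-clusters of the cardiomyocyte-like class used 20 components and resolution 0.8.

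Counts were added up over each class of a library. Ratios had 0.5 UMI added to each sum, and a gene with 0 UMIs was set at a floor of 3. Intervals are exact Poisson (levels), Clopper-Pearson (shares) and conditional binomial (ratios). They cover counting error only. The code was tested on simulated data. TMM factors came from edgeR 4.0.16. All 7 members were reported whatever their level. Of the pathway and regulator lists, genes past 2-fold in cardiomyocyte-like nuclei were named, with the highest class of Nppc, Mme, Pcsk6, Prkg1, Pde5a, Pde9a and Pde2a. Gata4, Gata6 and Ostn were named after their values were seen. The members and lists were chosen with earlier results of these data known.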

Additional observations from a re-analysis of the deposited data

Results flagged for a closer look

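Peptide transcripts were also present in barcodes outside the named classes, at levels above those of the sham library. In barcodes that failed the filter, Nppa stood at 236 CPM in MI-DAPA and 1203 CPM in MI-NS, against 57.5 CPM in Sham-NS. In the same barcodes Nppb stood at 103 CPM in MI-DAPA and 253 CPM in MI-NS, against 12.1 CPM in Sham-NS. In clusters left out as mixed, Nppa stood at 75.4 CPM in MI-DAPA and 387 CPM in MI-NS, against 6.82 CPM in Sham-NS, and Nppb at 88.3 CPM in MI-DAPA and 112 CPM in MI-NS, against 7.28 CPM in Sham-NS. A single MI-NS barcode of the mixed clusters held 265 Nppa UMIs among 3189, with 3 of Nppb and 22 of Myh7, and without it the mixed MI-NS level of Nppa was 218 CPM.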

How the results depend on the processing

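For 21 log2 ratios of the members, 281 values were computed under 15 alternatives: 236 stayed within the counting error of the value given, 44 moved beyond it and 1 changed direction. That one was Npr3 in endocardial-like nuclei for MI-DAPA over MI-NS, at -0.14 with classes from marker levels. In the same class and setting the ratio of MI-DAPA over Sham-NS, given as -0.07, was -1.08. No called peptide ratio changed direction. Keeping the mixed clusters, setting no minimum of UMIs and setting a minimum of 200 UMIs could not change any ratio. Their values are counted among the 236 all the same. Of the shares of nuclei with a UMI, 49 moved and 5 did not, thinning among the settings. Whether Nppa or Nppb of MI-DAPA lay farther above Sham-NS also turned: Nppa at 0.88 and Nppb at 1.83 with members among the variable genes, and 1.12 and 1.90 without the sub-cluster of highest Myh7. In cardiomyocyte-like nuclei the Nppa ratio of MI-NS over Sham-NS was 2.86 under the stricter filter (at least 500 genes, at most 5% mitochondrial UMIs), 2.70 with members among the variable genes, 4.77 after thinning to 500 UMIs, 3.49 with the immune-like level subtracted and 2.99 without the sub-cluster of highest Myh7. For MI-DAPA over MI-NS it was -0.81 under the stricter filter, -1.82 with members among the variable genes, -1.20 with TMM factors, -1.23 by marker level, -1.01 with the immune-like level subtracted and -1.88 without the sub-cluster. For MI-DAPA over Sham-NS it was 2.05 under the stricter filter, 0.88 with members among the variable genes, 3.09995 by marker level, 3.16 thinned and 1.12 without the sub-cluster. The Nppb ratio of MI-NS over Sham-NS was 3.58, 3.48, 3.73 and 3.54 under the stricter filter, with members, thinned and without the sub-cluster. For MI-DAPA over MI-NS it was -1.54, -1.65, -2.38 and -1.64 in that order, -1.84 with TMM factors and -1.77 by marker level. For MI-DAPA over Sham-NS it was 1.35 thinned and 2.44 with the immune-like level subtracted. Corin moved to -0.79 with TMM factors and -0.71 by marker level for MI-NS over Sham-NS, and to 0.58, 0.49 and, thinned, 0.61 for MI-DAPA over MI-NS. Npr1 in endothelial-like cluster 1 moved to 0.45 at Leiden resolution 2 and -0.26 by marker level for MI-NS over Sham-NS, and to -0.081 by marker level for MI-DAPA over MI-NS.

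Without the cardiomyocyte-like cluster of highest Myh7 level, which leaves only the shallow one, 4.14%, 17.6% and 0.980% of MI-DAPA, MI-NS and Sham-NS nuclei had Nppa and 3.55%, 16.7% and 1.47% had Nppb. Without the sub-cluster, 4.20% and 14.5% of MI-DAPA and MI-NS nuclei had Nppa and 11.6% and 24.0% had Nppb. Under the stricter filter and with members among the variable genes, the unnamed cluster held 48 and 175 MI-DAPA, 168 and 314 MI-NS and 3 and 10 Sham-NS nuclei. Adding it back, removing the sub-cluster and removing the shallow cluster were chosen after seeing the data. Keeping the mixed clusters left the cardiomyocyte-like class as it was, and a minimum of 200 UMIs left some Furin and Npr3 ratios without a value. No paired analysis was possible because each group had 1 library. In classes other than cardiomyocyte-like, depth limits what can be seen: most member values rest on fewer than 200 UMIs.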

Other observations

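A small sub-cluster of cardiomyocyte-like nuclei was led by Cntn2, Etv1 and Scn10a, genes known from the conduction system of the heart. It held 8 MI-DAPA, 12 MI-NS and 17 Sham-NS nuclei. Nppa stood in it at 330 CPM [121 to 719] in MI-DAPA and 950 CPM [609 to 1414] in MI-NS, from 6 and 24 UMIs, and had no UMI in Sham-NS, where 0 counts allow at most 116 CPM. Nppb stood at 110 CPM in MI-DAPA and 317 CPM in MI-NS, from 2 and 8 UMIs, and had none in Sham-NS. In MI-NS these Nppa UMIs came from 3 of the 12 nuclei.

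The single failed barcodes with most Nppa held 36 UMIs in MI-DAPA, 128 in MI-NS and 57 in Sham-NS. Without them Nppa in failed barcodes stood at 211, 1110 and 40.8 CPM, so the order of the libraries was kept.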
